A study of Rattus norvegicus with 18 samples.

Results

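Metallothioneins and the genes that sense and export zinc were followed in 18 rat lungs. The set was defined by gene symbol. It was chosen because Mt2A lay above control in every group of operated lungs, so the differences of its members from control are described here without a test. Of 6 listed names, Mt1 and Mt1a denote 1 gene, which leaves 5 genes: Mt2A, Mt1, Mt3, Slc30a1 and Mtf1. They were read by 6 of the 15923 probe sets of the Affymetrix rat 230A array, 1 for each gene except Mtf1, which had 2.

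The lungs came from male Sprague-Dawley rats. In anesthetized rats, ventilated through a tracheotomy, the left chest was opened and the left lung hilum was clamped for 2 h, which stops blood flow to warm lung in place. The 4 operated groups were left lungs after 30 min of reperfusion, left lungs after 3 h, and the unclamped right lungs of the same rats at 30 min and at 3 h, with 3 arrays each. The control group was 6 lungs taken right after anesthesia and sacrifice, whose side is not given in the sources used here. Anesthesia was shared by all groups, whereas thoracotomy, prolonged ventilation and elapsed time were shared by all operated lungs and by no control, so their parts in a difference from control cannot be told apart. Left side and clamp cannot be told apart either. In this bulk tissue, fewer cells of a type and less RNA per cell cannot be told apart.

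Metallothioneins are small, cysteine-rich proteins that bind zinc and copper and react with oxidants. Their transcription is driven by Mtf1, a zinc-sensing factor that binds metal response elements upstream of the metallothionein genes and of Slc30a1 (ZnT1), the transporter that carries zinc out of the cell. Mt1 and Mt2A are also known targets of glucocorticoids, interleukin 6 and oxidative stress, whereas Mt3 is best known from brain.

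The upstream sequences of the genes for the inducible metallothioneins and for the exporter are shown because Mtf1 is known to bind metal response elements upstream of such genes, and matches to the core of that element can be read in them. Each is the 250 bases before the RefSeq transcript start in build GRCr8, written 5′ to 3′ on the gene's strand. Capitals mark matches on either strand to the metal response core, searched as TGCACNC or TGCGCNC. Mt2A lies on the minus strand at chr19:10838709-10838958, Mt1 on the minus strand at chr19:10832976-10833225 and Slc30a1 on the plus strand at chr13:106021769-106022018.
Mt2A: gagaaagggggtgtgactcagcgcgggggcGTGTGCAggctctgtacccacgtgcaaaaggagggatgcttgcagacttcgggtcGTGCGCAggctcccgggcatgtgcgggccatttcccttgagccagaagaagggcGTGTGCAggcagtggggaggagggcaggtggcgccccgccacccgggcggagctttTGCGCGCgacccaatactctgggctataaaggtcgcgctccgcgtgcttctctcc
Mt1: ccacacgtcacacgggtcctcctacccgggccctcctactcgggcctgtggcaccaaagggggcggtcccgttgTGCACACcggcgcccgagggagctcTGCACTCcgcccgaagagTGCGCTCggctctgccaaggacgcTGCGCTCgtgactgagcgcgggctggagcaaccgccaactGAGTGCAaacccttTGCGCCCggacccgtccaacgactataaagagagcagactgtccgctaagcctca
Slc30a1: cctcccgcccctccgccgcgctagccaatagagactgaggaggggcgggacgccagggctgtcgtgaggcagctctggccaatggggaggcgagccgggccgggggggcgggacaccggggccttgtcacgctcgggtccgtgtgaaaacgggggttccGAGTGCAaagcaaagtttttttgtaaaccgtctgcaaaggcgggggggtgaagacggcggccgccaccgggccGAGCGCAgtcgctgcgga

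The window of Mt2A held 4 metal response cores and that of Mt1 held 6. Mt3, which lies beside them on chromosome 19, held 3, and Slc30a1 and Mtf1 held 2 each. Of 33469 rat promoters of this length, 20.6% held at least 1 such core, 0.266% held 4 or more and 0.0269% held 6 or more. A TATA box, searched as TATAAA on both strands, began 31 bases before the start of Mt2A, 32 bases before that of Mt1 and 31 bases before that of Mt3. It was not found in the windows of Slc30a1 and Mtf1, and 8.06% of all promoters held it. An antioxidant core, TGACNNNGC on either strand, matched 1 time in Mt2A, Mt1 and Slc30a1, 2 times in Mtf1 and not in Mt3, against 10.1% of all promoters. The palindromes searched for the glucocorticoid response element (in 0.012% of promoters), for STAT factors (TTCNNNGAA, in 7.67%) and for heat shock factor (GAANNTTC, in 7.23%) had no match in the 5 windows, which says only that these letters are not there. No antioxidant core overlapped a metal response core in the 5 windows.

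**Figure D1:**
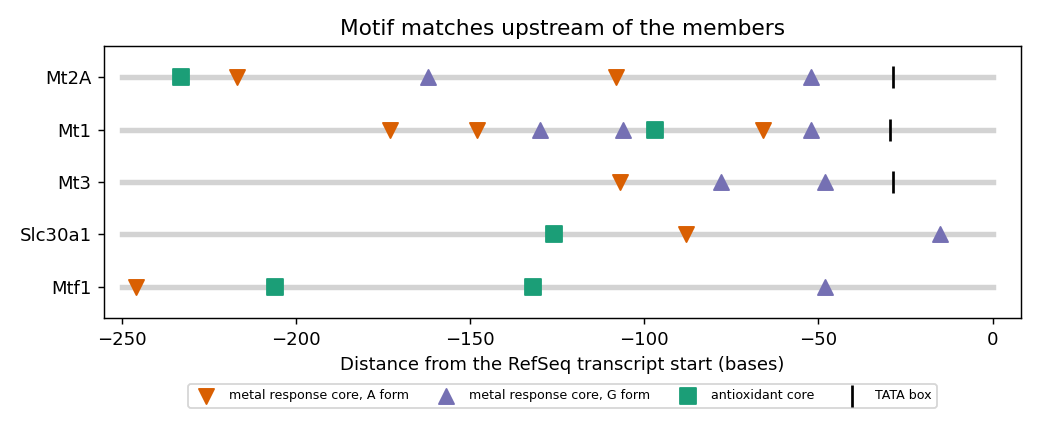
Positions of motif matches in the 250 bases upstream of the 5 genes, by distance in bases from the RefSeq transcript start at 0. Down triangles are the A form and up triangles the G form of the metal response core, squares the antioxidant core and bars the TATA box. Mt1 has 6 metal response cores and Mt2A has 4, and the TATA box is present in the 3 metallothioneins only.

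Values are probe set signals in arbitrary units, scaled by the authors to a common trimmed mean of 500.1 on each array, and differences are given on the scale of log2(signal + 25). A probe set was tested where at least 3 arrays exceeded a signal of 173.6, which 10533 probe sets of 7728 genes did. Median signals per array were 232.3 to 283.8. The summed signal of 8 of 9 lung markers on the array, among them Sftpc and Scgb1a1, was 63464 to 68976 in controls. It was 57325 to 71791 in left lungs at 30 min and 48384 to 61544 at 3 h. In right lungs it was 57601 to 62605 at 30 min and 66066 to 78191 at 3 h. In limma Sftpb and Sftpa1 were lower than control in left lungs at 3 h, and Aqp5 and Ager in right lungs at 30 min. Aqp5 was also lower in right lungs at 3 h, and Pecam1 was higher in left lungs at 30 min. The ratio of 3′ to 5′ beta-actin signal, which rises as RNA degrades, was 4.81 and 2.30 in left 30 min replicates 1 and 3 and 2.93 in right 30 min replicate 3, against 1.31 to 1.78 on the other arrays. Some neutrophil markers also moved with operation. The summed signal of 8 of 14 on the array was 6807 to 21620 in operated lungs and 2709 to 4554 in controls. No listed marker on the array was at 0. In limma S100a8, S100a9 and Mmp8 were higher than control in each of the 4 operated groups, whereas Cxcr1 was lower in 3 of them. Mmp9, Cxcr2 and Lcn2 were called in no operated group. Lcn2 differed from control by −0.67 and −0.65 in left and right lungs at 30 min and by 0.55 and 0.75 at 3 h. Mmp8 passed the filter through operated lungs only, its highest control being 167.4. Of all genes 8.64% and 13.5% were called higher in left lungs at 30 min and 3 h, and 5.93% and 7.75% in right lungs. Erythroid markers moved in right lungs at 30 min, where the summed signal of 5 of 9 on the array was 17161 to 24853, against 12513 to 17125 in controls. Alas2, Slc4a1 and Ahsp were 3.07-fold, 3.35-fold and 2.37-fold control there (limma adjusted p = 0.0012, 2.94e-05 and 0.00116), and none of the 4 tested was called in the other 3 groups. Of 3 macrophage markers tested, Csf1r was lower than control in both groups of left lungs and in right lungs at 30 min, by 1.43-fold, 1.31-fold and 1.57-fold. Cd68 was called against control in no operated group. Fabp4 was called in right lungs at 3 h only, where it was 2.24-fold control (limma adjusted p = 0.0114). The part of these cells in the results below was not tested.

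Mt2A, the metallothionein with the large difference, passed the filter on all arrays. Its signal was 7460.3, 8219 and 7089 in left lungs at 30 min, and 12091, 10496 and 8444 in left lungs at 3 h. It was 10029.7, 5129 and 7530.4 in right lungs at 30 min, and 10059.8, 5319 and 15293 in right lungs at 3 h. Controls had 376, 433, 959, 849, 453 and 429.7. All 12 operated lungs lay above all 6 controls, and the lowest operated lung, right 30 min replicate 2, was 5.35 times the highest control.

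Group means of Mt2A signal were 10343 ± 1828 in left lungs at 3 h, 10224 ± 4989 in right lungs at 3 h, 7589 ± 576 in left lungs at 30 min, 7563 ± 2451 in right lungs at 30 min and 583 ± 252 in controls (SD, n = 3 in each operated group and 6 controls). The spread was uneven. The highest left lung at 30 min was 1.16 times the lowest, whereas this ratio was 2.88 in right lungs at 3 h and 2.55 among controls. The residual SD of Mt2A within groups was 0.506 on the log2 scale, larger than in 96.6% of genes tested, against a median of 0.209.

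**Figure D2:**
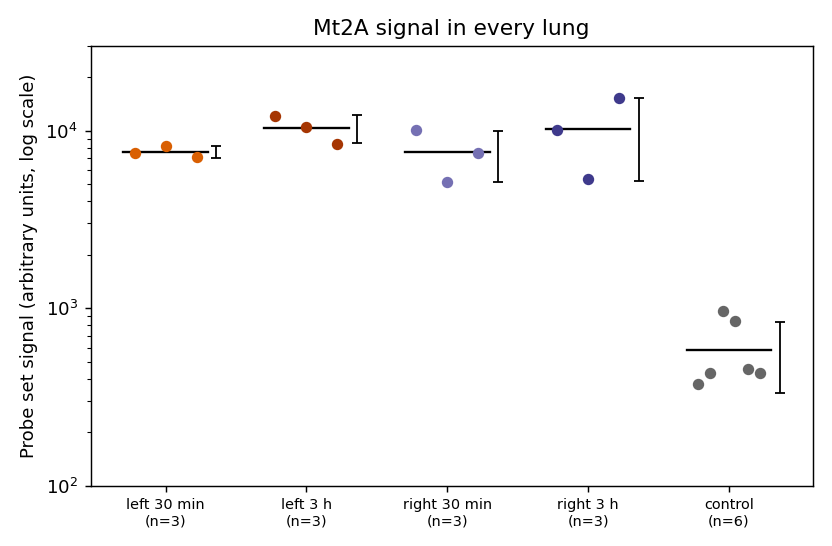
Mt2A probe set signal (arbitrary units, log axis) in each lung, by group. Points are lungs, horizontal lines group means and error bars SD. The 12 operated lungs lie between 5129 and 15293, and the 6 controls between 376 and 959.

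On the log2 scale, Mt2A exceeded control by 3.74 ± 0.32 (SE) in left lungs at 30 min, a 13.3-fold difference, and by 4.17 ± 0.32 in left lungs at 3 h. In the unclamped right lungs it exceeded control by 3.68 ± 0.32, 12.8-fold, at 30 min and by 4.04 ± 0.32, 16.5-fold, at 3 h. The 95% interval of the fold ran from 8.08 to 20.4 in right lungs at 30 min and from 11.3 to 28.6 in left lungs at 3 h. Among 7728 genes ordered by their difference from control, Mt2A stood first in both groups of right lungs, at place 2 in left lungs at 3 h and at place 4 in left lungs at 30 min. These 4 differences share their controls and are the contrast for which the gene was chosen. In the same comparisons 18.2% of all genes were called in left lungs at 30 min and 37.6% at 3 h, and 12.3% in right lungs at 30 min and 20.4% at 3 h. Without the 3 arrays of highest actin ratio the log2 differences of Mt2A from control were 3.85 in left lungs at 30 min and 3.66 in right lungs at 30 min.

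Whether the clamp or the time of reperfusion altered Mt2A was compared among operated lungs, a contrast that did not choose the set. Left lungs differed from right lungs by 0.06 at 30 min (95% interval −0.72 to 0.83, limma adjusted p = 0.982) and by 0.13 at 3 h (−0.64 to 0.90, adjusted p = 0.882). Erythroid markers lay lower in left than in right lungs at 30 min, with a median difference of −1.20 over the 4 tested, none of them called. As ratios, the Mt2A intervals run from 0.609 to 1.77 and from 0.641 to 1.87, so differences within these bounds are not excluded by 3 lungs a group. Lungs at 3 h differed from those at 30 min by 0.43 on the left (−0.34 to 1.20, adjusted p = 0.522) and by 0.36 on the right (−0.41 to 1.13, adjusted p = 0.707). The left-right difference changed with time by 0.07 (−1.02 to 1.17, adjusted p = 0.989). All left lungs at 3 h lay above all left lungs at 30 min, whereas the right lungs at the 2 times overlapped. Values with right lungs at 3 h moved with replicates 2 and 3 of that group. Left against right at 3 h was −0.28 without replicate 2 and 0.48 without replicate 3, and right lungs at 3 h against 30 min were 0.76 without replicate 2 and 0.005 without replicate 3.

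**Figure D3:**
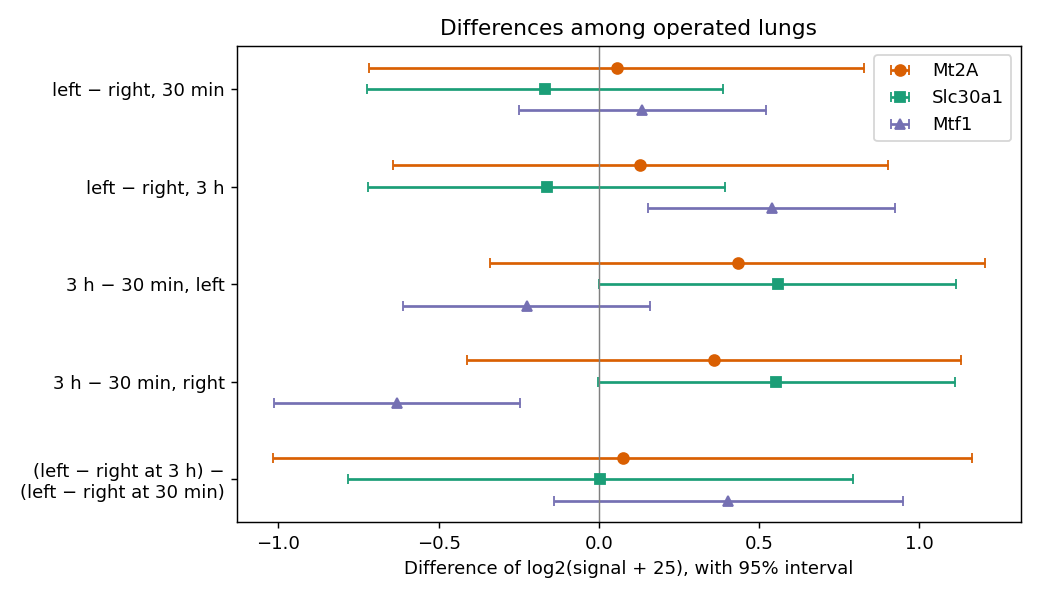
Differences among operated lungs for Mt2A (circles), Slc30a1 (squares) and Mtf1 (triangles), as log2(signal + 25), with 95% intervals from limma. All 5 intervals of Mt2A include 0. The 2 of Mtf1 that do not include it are those for left against right at 3 h and for 3 h against 30 min in right lungs. That of Slc30a1 for 3 h against 30 min in left lungs, 0.0019 to 1.11, does not include it either.

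The 15 tests of Mt2A, Slc30a1 and Mtf1 among operated lungs gave 0 calls at an adjusted p under 0.05 in limma, and 3 had an unadjusted p under 0.05. Over all genes the same comparisons called 0.0518% for left against right at 30 min, 2.37% for left against right at 3 h, 3.07% for 3 h against 30 min on the left and 0.194% on the right. The interaction of side and time called 0.233%. With the replicate number within each time as a block, 0 genes were called for left against right at 30 min, against 4 without it.

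Mt1, the other inducible metallothionein, was read by a probe set that was dim on every array and failed the filter. Its signal was 136, 27.0 and 48.4 in left lungs at 30 min and 36.7, 19.6 and 12.2 in left lungs at 3 h. Right lungs had 44.5, 6.01 and 62.6 at 30 min and 16.5, 59.6 and 31.0 at 3 h, and controls had 6.62, 2.83, 5.20, 5.14, 4.35 and 2.94. The probe set exceeded the highest control in 11 of 12 operated lungs, the exception being right 30 min replicate 2, the lowest operated lung for Mt2A as well. No fold is given, because the control mean of 4.51 ± 1.46 lies below the added 25. The highest values of the left and of the right lungs at 30 min, 136 and 62.6, came from the arrays of highest actin ratio on each side.

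Mt3, known mainly from brain, was dim in every group and failed the filter. Its signal was 28.6, 18.5 and 23.8 in left lungs at 30 min, 73.8, 19.0 and 48.9 in left lungs at 3 h, 35.3, 28.8 and 59.2 in right lungs at 30 min and 37.7, 34.0 and 18.3 in right lungs at 3 h. Controls had 31.2 to 57.5. The left lungs at 30 min lay below every control and the other 3 operated groups overlapped them. Neither Mt1 nor Mt3 was tested.

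Slc30a1, the zinc exporter of the cell membrane, did not share the pattern of Mt2A. Its signal was 92.6, 181 and 181 in left lungs at 30 min and 189.6, 231 and 265 in left lungs at 3 h. Right lungs had 235, 193 and 100.1 at 30 min and 276, 263 and 232 at 3 h, and controls had 271, 173, 170.2, 137, 166 and 220.4. Every operated group overlapped the range of controls. The probe set sat close to the filter, which 12 of 18 arrays exceeded.

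Against control, Slc30a1 differed by −0.30 ± 0.23 (SE) in left lungs at 30 min and 0.26 ± 0.23 in left lungs at 3 h, and by −0.13 ± 0.23 in right lungs at 30 min and 0.42 ± 0.23 in right lungs at 3 h. Lungs at 3 h exceeded those at 30 min by 0.56 on the left (95% interval 0.0019 to 1.11, unadjusted p = 0.0493, limma adjusted p = 0.224) and by 0.55 on the right (−0.0029 to 1.11, unadjusted p = 0.0511, adjusted p = 0.369). Neither passed the adjustment over all genes. The 2 lowest of the 18 lungs, at 92.6 and 100.1, were those of highest actin ratio, 4.81 and 2.93. Without the 3 arrays of highest ratio the differences with time were 0.29 on the left (adjusted p = 0.837) and 0.24 on the right (adjusted p = 0.795). Left lungs differed from right lungs by −0.17 at 30 min (−0.72 to 0.39, adjusted p = 0.912) and by −0.16 at 3 h (−0.72 to 0.39, adjusted p = 0.779).

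Mtf1, the zinc sensor, differed from control by less than 1.5-fold in every group. Its probe set of higher mean signal gave 558, 402 and 456 in left lungs at 30 min and 462, 329 and 409 in left lungs at 3 h. It gave 460.2, 362 and 456 in right lungs at 30 min and 248, 201.5 and 369.5 in right lungs at 3 h, against 293 to 374.5 in controls. All left lungs at 30 min lay above every control, and the other operated groups overlapped the controls. Its differences from control were 0.50 ± 0.16 (SE) in left lungs at 30 min, 0.27 ± 0.16 in left lungs at 3 h, 0.36 ± 0.16 in right lungs at 30 min and −0.27 ± 0.16 in right lungs at 3 h. The second probe set of Mtf1 failed the filter, with 54.7 to 136 in operated lungs and 59.4 to 92.6 in controls. In a fit with no filter on low values its differences from control were 0.17, 0.02 and 0.09 in the first 3 of these groups and −0.09 in right lungs at 3 h.

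Among operated lungs Mtf1 had the values nearest to a call. Left lungs exceeded right lungs by 0.54 at 3 h (95% interval 0.15 to 0.92, unadjusted p = 0.0088, limma adjusted p = 0.134), and right lungs at 3 h lay 0.63 below right lungs at 30 min (a difference of −0.63, −1.01 to −0.24, adjusted p = 0.154). Left lungs at 3 h and at 30 min differed by −0.23 (adjusted p = 0.499), and left from right lungs at 30 min by 0.14 (adjusted p = 0.885). Right 3 h replicate 3 decided these calls, since without it the difference of left from right at 3 h was 0.76 (adjusted p = 0.0202) and that of right lungs at 3 h from 30 min was −0.85 (adjusted p = 0.0405). Cardiac muscle markers moved with this contrast. The summed signal of 11 of 12 on the array was 402 to 606 in left lungs and 2648 to 12656 in right lungs at 3 h, and their part in the Mtf1 difference was not tested.

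**Figure D4:**
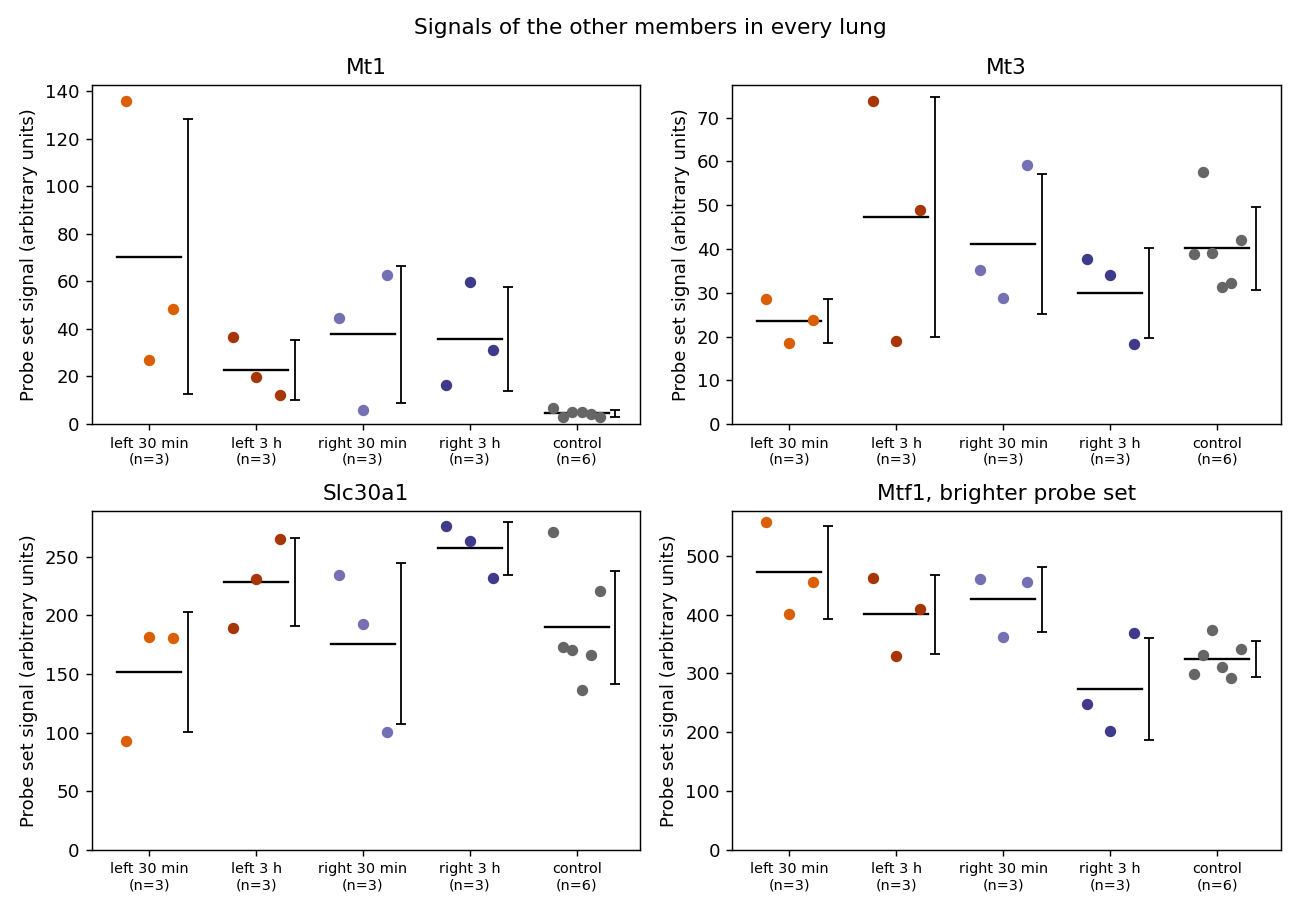
Probe set signals (arbitrary units, linear axes from 0) of Mt1, Mt3, Slc30a1 and the Mtf1 probe set of higher mean in each lung. Points are lungs, horizontal lines group means and error bars SD. Mt1 lies above controls in 11 of 12 operated lungs, whereas Slc30a1 at 92.6 to 276 overlaps the controls at 137 to 271.

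The members thus differed in their pattern over arrays. The log2 values of Mt2A correlated with those of Mt1 at r = 0.66 over the 18 arrays and with Mtf1 at 0.36, Slc30a1 at 0.07 and Mt3 at −0.22. Over the 12 operated arrays these values were −0.10 for Mt1, 0.19 for Mtf1, 0.22 for Slc30a1 and 0.01 for Mt3. The points share scaling, rats and, for Mt1, very low signal.

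Other genes of zinc handling were read from lists of the exporter (ZnT) and importer (ZIP) families. These lists and those below were chosen with earlier results of these data known. Of 9 ZnT genes other than Slc30a1, 7 were tested, and 2 were higher than control in left lungs at 30 min, 3 in left lungs at 3 h, 1 in right lungs at 30 min and 2 in right lungs at 3 h, with 0 lower. The share of all genes called higher was 8.64%, 13.5%, 5.93% and 7.75% in the same order of groups. The median difference of the 7 was 0.09, 0.26, 0.09 and 0.12, against −0.06, −0.13, −0.04 and −0.05 over all genes. Slc30a3 (ZnT3), known for loading zinc into synaptic vesicles, was the single exporter called in all 4 groups. Its signal was 965.6 to 1874 in operated lungs and 471.5 to 819.5 in controls. It exceeded control 2.24-fold (limma adjusted p = 0.000736) in left lungs at 30 min, 1.82-fold (adjusted p = 0.00303) in left lungs at 3 h, 2.01-fold (adjusted p = 0.00334) in right lungs at 30 min and 2.05-fold (adjusted p = 0.00171) in right lungs at 3 h. Leaving out any 1 array kept these calls, and without the 3 arrays of highest actin ratio the adjusted p in left lungs at 30 min was 0.058.

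The other exporters called act inside the cell. Slc30a4 (ZnT4), which fills vesicles with zinc, was 1.33-fold control in left lungs at 3 h (limma adjusted p = 0.0111, 0.0541 without left 3 h replicate 1) and 1.34-fold in right lungs at 3 h (adjusted p = 0.0181, 0.0783 without right 3 h replicate 3). Slc30a7 (ZnT7), which supplies the Golgi, exceeded control by 0.58 on the log2 scale in left lungs at 3 h (adjusted p = 0.0107, 0.121 without left 3 h replicate 1). In left lungs at 30 min it was 1.39-fold control (adjusted p = 0.0493), a call lost in 11 of 18 fits that left out 1 array. Its mean signal in left lungs was 193.5 ± 46.7 (SD) at 30 min and 212.5 ± 68.3 at 3 h. It was 141 ± 23.4 and 140.4 ± 26.4 in right lungs at 30 min and 3 h, and 130.3 ± 15.3 in controls. Only the left means exceeded the filter signal of 173.6, so Slc30a7 passed the filter through left lungs, the groups where it was called.

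Of 14 ZIP genes 9 were tested. In left lungs at 3 h 2 were higher and 3 lower than control, in right lungs at 3 h 2 were higher and 1 lower, in left lungs at 30 min 1 was lower and in right lungs at 30 min none was called. The share of all genes called lower was 9.52% and 24.1% in left lungs at 30 min and 3 h, and 6.33% and 12.6% in right lungs at 30 min and 3 h. The share called higher was 8.64%, 13.5%, 5.93% and 7.75% in the same order. The list's median difference was −0.26 and −0.08 in left lungs at 30 min and 3 h and −0.21 and 0.02 in right lungs. Over all genes it was −0.06, −0.13, −0.04 and −0.05 in that order. Slc39a14 (ZIP14), an importer of zinc and iron known to be induced by interleukin 6 in mouse liver, was 1.88-fold control in left lungs at 3 h (limma adjusted p = 0.00313). It was 1.52-fold control in right lungs at 3 h (adjusted p = 0.0489), a call lost in 13 of 18 fits that left out 1 array. Slc39a8 (ZIP8), an importer of zinc and manganese, was 1.69-fold control in right lungs at 3 h (adjusted p = 0.00701). It exceeded control by 0.58 on the log2 scale in left lungs at 3 h (adjusted p = 0.0177), where leaving out left 3 h replicate 2 or 3 raised the adjusted p to at most 0.0917.

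Slc39a3 (ZIP3), an importer of the cell surface, had a signal of 95.2 to 195.8 in operated lungs and 197.7 to 238.5 in controls. It was not called against control in either group at 30 min. It fell by 0.81 on the log2 scale in left lungs at 3 h (limma adjusted p = 8.23e-05) and by 0.39 in right lungs at 3 h (adjusted p = 0.024, at most 0.153 without right 3 h replicate 2 or 3), and this last call was lost when arrays were centred on their medians or quantile normalized. Slc39a13 and Slc39a10 were also lower in left lungs at 3 h, by 1.35-fold and 1.44-fold (adjusted p = 0.00642 and 0.0163). Their adjusted p was 0.0581 without left 3 h replicate 1 and 0.0605 without left 3 h replicate 2, and the call of Slc39a10 was lost under centring and quantile normalization and that of Slc39a13 under centring. Slc39a4, the importer of intestinal zinc uptake, was 1.34-fold lower in left lungs at 30 min (adjusted p = 0.0489), a call lost in 11 of 18 fits that left out 1 array. No ZnT or ZIP gene was called between left and right lungs or between 3 h and 30 min. Few genes were called there at all, 0.0518% and 2.37% between left and right lungs at 30 min and 3 h. Between 3 h and 30 min the share was 3.07% on the left and 0.194% on the right.

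**Figure D5:**
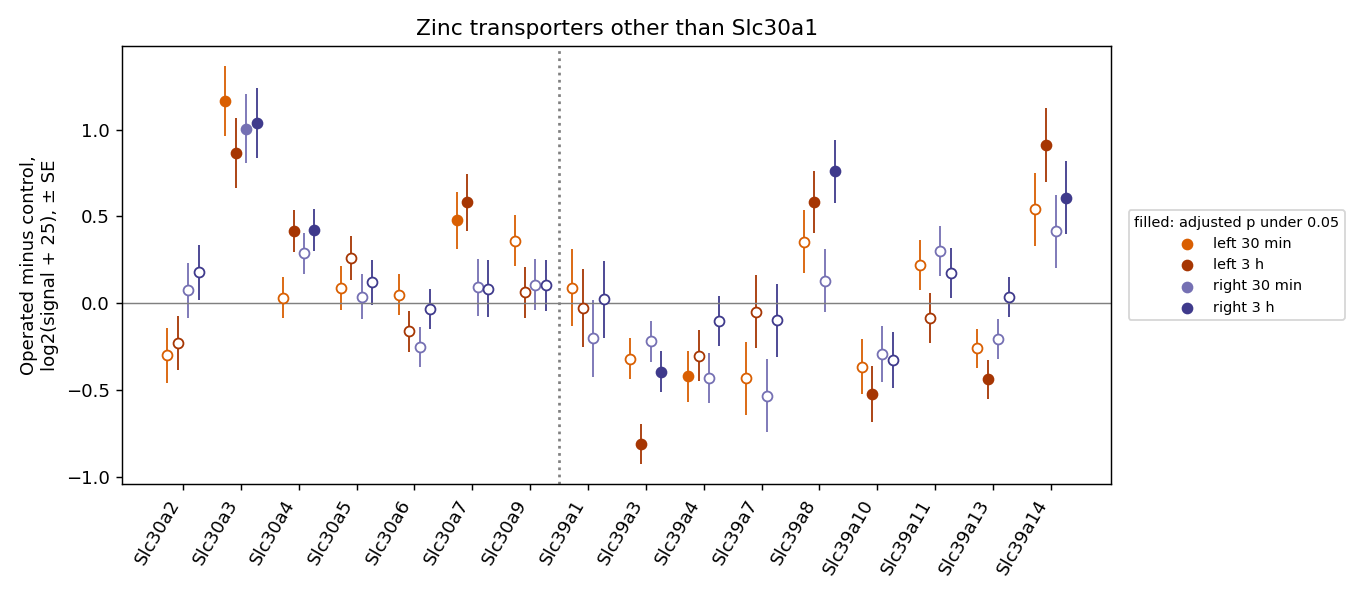
Difference of operated groups from control, as log2(signal + 25) with SE, for 7 zinc exporters (left of the dotted line) and 9 importers. Filled points have a limma adjusted p under 0.05. Slc30a3 is higher in all 4 operated groups, and Slc39a3 is lowest in left lungs at 3 h at −0.81.

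Metallothioneins also bind copper, and 9 of 11 copper handling genes were tested. In left lungs 0 were higher and 1 lower than control at 30 min, and 1 and 3 at 3 h. In right lungs 1 and 1 were called at 30 min, and 1 and 2 at 3 h. Of all genes 9.52%, 24.1%, 6.33% and 12.6% were called lower in the same order, and 8.64%, 13.5%, 5.93% and 7.75% higher. The list's median difference was −0.05, −0.18, −0.14 and −0.10, against −0.06, −0.13, −0.04 and −0.05 over all genes. Slc31a2, a low-affinity copper transporter, was lower than control in all 4 operated groups, by 1.41-fold and 1.37-fold in left lungs at 30 min and 3 h and by 1.36-fold and 1.41-fold in right lungs at 30 min and 3 h (limma adjusted p = 0.0162, 0.0147, 0.0388 and 0.0147). These calls were lost in 2, 2, 8 and 2 of 18 fits that left out 1 array, and under both other scalings in all groups but right lungs at 3 h. Atox1, the chaperone that hands copper to its exporters, was lower by 1.68-fold in left lungs at 3 h (adjusted p = 0.00183) and by 1.72-fold in right lungs at 3 h (adjusted p = 0.00264). Slc31a1, the high-affinity copper importer, was higher by 1.31-fold in left lungs at 3 h (adjusted p = 0.00257) and by 1.24-fold in right lungs at 30 min (adjusted p = 0.0288), a call lost in 6 of 18 such fits. Commd1 was 1.42-fold lower in left lungs at 3 h (adjusted p = 0.0158, at most 0.0547 without left 3 h replicate 1 or 3, and lost under both other scalings), and Cp, the plasma copper oxidase, was 1.45-fold higher in right lungs at 3 h (adjusted p = 0.0259, at most 0.0824 without any 1 of the 3 right lungs at 3 h).

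Genes that share known inducers with metallothioneins were read from 3 further lists. Of 9 tested genes that respond to metals, oxidants or heat, 6 were higher than control in left lungs at 30 min, 7 in left lungs at 3 h, 1 in right lungs at 30 min and 4 in right lungs at 3 h, with 0 lower. The share of all genes called higher was 8.64% and 13.5% in left lungs at 30 min and 3 h and 5.93% and 7.75% in right lungs at 30 min and 3 h. The list's median difference was 0.51, 1.44, 0.37 and 0.48 in the same groups, against −0.06, −0.13, −0.04 and −0.05 over all genes. Gclc, which makes glutathione, was higher in all 4 groups, from 1.38-fold in left lungs at 30 min (limma adjusted p = 0.0356, lost in 5 of 18 fits that left out 1 array) to 1.81-fold in left lungs at 3 h (adjusted p = 0.000369). Its call in right lungs at 30 min was lost without replicate 1 of that group (adjusted p = 0.111). Hmox1, the haem-degrading enzyme, was 2.49-fold and 5.78-fold control in left lungs at 30 min and 3 h (adjusted p = 0.0144 and 6.12e-05) and 2.24-fold in right lungs at 3 h (adjusted p = 0.0265, at most 0.164 without control replicate 4 or right 3 h replicate 1 or 3). Without left 30 min replicate 2 the 6 calls of left lungs at 30 min were all lost, and without the 3 arrays of highest actin ratio 2 were left, Hmox1 and Srxn1.

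Unlike Mt2A, 2 genes of this list differed between the lungs of operated rats. The heat shock genes Hspa1a and Dnajb1 were higher in left than in right lungs at 3 h, by 3.90 and 2.36 on the log2 scale (limma adjusted p = 1.86e-06 and 2.14e-06), against 1.75% of all genes called higher in that comparison. They were 10.4-fold (limma adjusted p = 3.02e-07) and 5.24-fold (adjusted p = 9.52e-08) control in left lungs at 3 h and were not called against control in either group of right lungs. Whether Mt2A and these genes differ in their left-right difference was not tested.

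Of 11 tested glucocorticoid-responsive genes, 8 were higher than control in left lungs at 30 min, 7 in left lungs at 3 h, 6 in right lungs at 30 min and 8 in right lungs at 3 h, with 0 lower, where 8.64%, 13.5%, 5.93% and 7.75% of all genes were called higher. The list's median difference was 0.88, 0.95, 0.74 and 0.87, against −0.06, −0.13, −0.04 and −0.05 over all genes. Fkbp5, a chaperone partner of the glucocorticoid receptor, was 5.75-fold and 3.50-fold control in left lungs at 30 min and 3 h and 5.80-fold and 5.69-fold in right lungs at 30 min and 3 h (limma adjusted p = 1.71e-06, 1.51e-05, 1.98e-06 and 1.35e-06). Klf9, a receptor-induced transcription factor, was 2.19-fold to 2.40-fold control and Errfi1, an inhibitor of growth factor receptors, 2.61-fold to 4.01-fold control in the 4 groups. The calls of Fkbp5, Klf9, Errfi1 and the kinase gene Sgk1 held when any 1 array or the 3 arrays of highest actin ratio were left out. Without those 3 arrays the list had 4 genes higher in left lungs at 30 min, against 8 with them. None of the 11 was called between left and right lungs, where 0.0518% of all genes were called at 30 min and 2.37% at 3 h.

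Of 10 tested genes of interleukin 6 and Stat3 signalling, 7 were higher than control in left lungs at 30 min, 8 in left lungs at 3 h, 6 in right lungs at 30 min and 7 in right lungs at 3 h, with 0 lower, set beside 8.64%, 13.5%, 5.93% and 7.75% of all genes. The median difference was 0.85, 1.296, 0.71 and 0.88, against −0.06, −0.13, −0.04 and −0.05 over all genes. Il6, the cytokine, was 16.0-fold and 16.8-fold control in left lungs at 30 min and 3 h (limma adjusted p = 7.96e-05 and 3.25e-05). It was 6.26-fold control in right lungs at 30 min (adjusted p = 0.00343) and 3.63-fold at 3 h (adjusted p = 0.0193, 0.154 without right 3 h replicate 3). Stat3, its transcription factor, was 1.92-fold and 2.59-fold control in left lungs at 30 min and 3 h and 1.64-fold and 1.93-fold in right lungs. Timp1, a protease inhibitor, was 2.94-fold to 6.12-fold control in the 4 groups. The calls of Stat3 and Timp1 held when any 1 array was left out. Without the 3 arrays of highest actin ratio, 4 genes of this list were higher in left lungs at 30 min, against 7 with them.

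The 6 lists had 7, 9, 9, 9, 11 and 10 tested genes. Over all 6 lists 23 genes were higher and 2 lower than control in left lungs at 30 min, 28 and 6 in left lungs at 3 h, 15 and 1 in right lungs at 30 min, and 24 and 3 in right lungs at 3 h. Of all genes 8.64%, 13.5%, 5.93% and 7.75% were called higher in the same order, and 9.52%, 24.1%, 6.33% and 12.6% lower. Because the lists were chosen with earlier results of these data known, an excess over these shares is a description and was not tested. In left lungs at 30 min 10 list genes were higher without the 3 arrays of highest actin ratio and 13 without replicate 2 of that group. In right lungs 9 were higher at 30 min without replicate 1 and 13 at 3 h without replicate 3. After median centring of the arrays, the median difference of all genes in left lungs at 3 h was 0.03, against −0.13 as deposited. This turned the split of all called genes there, to 1510 higher and 956 lower, against 1044 and 1864 as deposited.

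The tested genes most like Mt2A over the 18 arrays, by Pearson r of log2 values, were Crispld2 (r = 0.962, Spearman rho = 0.882), F3 (0.955 and 0.866), Xdh (0.950 and 0.872), Errfi1 (0.948 and 0.787), Rgcc (0.946 and 0.746), Ifngr1 (0.943 and 0.779), Rcl1 (0.943 and 0.932) and Klf9 (0.942 and 0.616). F3 encodes tissue factor, which starts blood clotting, and Xdh encodes xanthine dehydrogenase, which can form oxidants. Any gene that separates operated from control lungs scores high on this measure. Within the 12 operated arrays the most alike were Il4r (0.909), Il6st, the shared receptor chain of the interleukin 6 family (0.902), Rcl1 (0.890), the neuropeptide gene Gal (0.890) and Sema6b (0.887). Rcl1 was in both groups of names. The points share rats and scaling, and no test was made.

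Mt1, Mt2A, Mt3 and Mt4 lie in this order in 1 cluster of the RefSeq table. Of the 10 nearest protein-coding genes with a probe set, 5 on either side, 8 were tested. In limma 0 of their 72 tests in 9 comparisons were called, whereas 10 had an unadjusted p under 0.05. Over all genes 12.3% to 37.6% were called in the comparisons with control and 0.0518% to 3.07% in those among operated lungs. The 8 were Nup93, Herpud1, Cpne2, Psme3ip1, Bbs2, Nudt21, Hmgxb4 and Tom1, and the untested Slc12a3 and Gnao1 failed the filter. The nearest to a call was Herpud1, a gene of endoplasmic reticulum stress, at 0.82 ± 0.27 (SE) above control in right lungs at 30 min (adjusted p = 0.0538).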

How the data were processed

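Values are the authors' deposited probe set intensity signals, made with MAS5 per the submitters' processing notes (its version is not given in the sources used here). GeneSpring 7.2 is named in the authors' design text. With 2% trimmed from either end, every array averaged 500.1, and the signals were left on that scale. Symbols came from the platform annotation (12783 probe sets with 1 symbol, 312 with several, 2771 with none, 57 control probe sets left out) and 0 changed in a current RefSeq gene table. Signals were analysed as log2(signal + 25). Probe sets were tested where at least 3 of 18 arrays exceeded the 40th percentile of all signals, 173.6.

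limma 3.58.1 (R 4.3.3; lmFit and eBayes) estimated differences between 5 group means over 18 arrays, two-sided, with Benjamini-Hochberg adjustment over 10533 probe sets and a threshold of 0.05. Where a gene had several tested probe sets, the one of highest mean stood for it. In simulated arrays with 200 changed probe sets drawn at random, 80.3% of 2-fold changes between left and right lungs at 3 h were recovered. For the interaction of side and time 50.9% were. These averages over probe sets need not hold for Mt2A, whose residual SD of 0.506 exceeded the median of 0.209. The members and lists were chosen with earlier results of these data known. Genes were named as members and, from each list and comparison, as the called genes of smallest adjusted p (up to 4, or all of at most 5). Genes most like Mt2A (8 over all arrays, 5 over operated arrays) and 5 cluster neighbours a side were also named. Srxn1, Hspa1a and Dnajb1 in single comparisons, and the cell type markers, were named after their values were seen.

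Both lungs of a rat were used as separate samples. Whether a replicate number marks a rat, or samples of a group separate animals, is not stated for operated lungs, so p-values measure the spread between these samples. Between same-numbered left and right lungs, deviations from group means correlated at 0.12, 0.31 and 0.15 in the 30 min groups. The 3 h groups gave −0.17, 0.07 and −0.15. The criterion that every same-numbered pair exceed 0.1 was met in the 30 min groups only. Differently numbered pairs there ran from −0.29 to 0.1. In the 3 h groups, left 1 with right 3, left 2 with right 1 and left 3 with right 2 gave 0.34, 0.22 and 0.16. The remaining pairs of different number gave −0.21, −0.24 and −0.02. Because a pairing by other numbers also met it, the criterion cannot decide whether numbers mark rats. Upstream sequences are from RefSeq, build GRCr8, where 5 of 5 genes matched. The number of arrays limits the precision. Python 3.11.15, numpy 2.4.6, pandas 2.3.3 and matplotlib 3.10.9 were used.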

Additional observations from a re-analysis of the deposited data

Results flagged for a closer look

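Slc30a1 fell on opposite sides of the control mean in left lungs at the 2 times. All 3 left lungs at 3 h lay at or above the control mean of 189.6 and all 3 left lungs at 30 min lay below it, and the effect at 30 min minus that at 3 h was −0.56 on the log2 scale. The direct comparison of left lungs at 3 h and at 30 min had a limma adjusted p of 0.224. Left 30 min replicate 1, at 92.6, had the highest actin ratio of the 18 arrays.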

How the results depend on the processing

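Mt2A lay 3.51 to 4.33 above control on the log2 scale under the other pseudocounts, filters, scalings, fits and blocks tried. Leaving out 1 array, it was 3.64 to 3.89 in left lungs at 30 min, 4.05 to 4.33 at 3 h, 3.45 to 3.93 in right lungs at 30 min and 3.69 to 4.45 at 3 h. Small differences among operated lungs, none called, turned sign in places. Leaving out 1 array, left against right ranged from −0.20 to 0.28 for Mt2A at 30 min, from −0.28 to 0.48 for Mt2A at 3 h and from −0.48 to 0.10 for Slc30a1 at 30 min, and the change of that difference with time from −0.33 to 0.43 for Mt2A and from −0.27 to 0.31 for Slc30a1. The Slc30a1 change was −0.0036 with a pseudocount of 100 and −0.0122 after quantile normalization, against 0.0048. Without the 3 arrays of highest actin ratio, the Mt2A change was −0.0667 and Mtf1 left against right at 30 min was −0.0223. Both replicate block fits changed no call of a member, and Mt2A left against right was then 0.06 (limma adjusted p = 0.989) at 30 min and 0.13 (adjusted p = 0.883) at 3 h.

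For all 6 lists, the number as a replicate block gave 12 higher and 0 lower in left lungs at 30 min, 3 lower in left lungs at 3 h, 8 higher and 0 lower in right lungs at 30 min, and 11 higher and 1 lower in right lungs at 3 h. In that fit, whose numbers do not pair operated with control rats, the metal and oxidant list had 0 and 6 higher in left lungs at 30 min and 3 h and 0 in right lungs at both times. The interleukin 6 list had 5 and 8 in left and 2 and 4 in right lungs, and copper genes had 0 and 1 lower in left and 0 and 1 in right lungs. Without the 3 arrays of highest actin ratio left lungs at 30 min had 10 higher and 0 lower. The few lower calls were, in left lungs at 30 min, 1 with a pseudocount of 5, with no filter or after quantile normalization, 0 after centring and 4 in a fit of only the groups compared. In right lungs at 30 min they were 2 with a pseudocount of 100, 0 with no filter or after centring and 3 in a fit of only the groups compared, and in left lungs at 3 h 2 after centring. Leaving out 1 array gave 13 to 25 higher and 0 to 3 lower in left lungs at 30 min, 24 to 29 and 3 to 7 at 3 h, 9 to 17 and 0 to 3 in right lungs at 30 min, and 13 to 26 and 2 to 3 at 3 h. Over all genes, a fit of only the groups compared called 20 for left against right at 3 h and 16 for left lungs at 3 h against 30 min, against 183 and 237. With the number within each time as a block, left against right at 3 h had 12. The causes were not tested. With 3 arrays a group, Mt2A, whose spread was large, has wide intervals, and Mt1 and Mt3 are limited by signal too dim to test.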
